A study of Mus musculus with 21 samples.

Results

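The expression of 10 genes that release calcium from the sarcoplasmic reticulum of muscle fibers, hold it there or in the cytosol, and pump it back was measured in the gastrocnemius of mice that differed in treadmill activity. The genes were chosen by name (Ryr1, Cacna1s, Jph1, Atp2a1, Atp2a2, Sln, Casq1, Casq2, Pvalb and Srl). All 10 were among the 40853 genes of the count table, and all 10 were among the 16129 that passed the filter on low counts. RNA of the whole medial belly was poly(A) selected and sequenced in 21 female C57BL/6NJ mice, with 1 library per mouse. The mice were 10 weeks old at the start and all of this 1 strain. The Inactive group (n = 7) stayed in standard housing for 6 weeks without training, and the Active group (n = 7) trained on a treadmill for 6 weeks, on 5 days per week. A session lasted up to 40 min with its slower warm-up, and the time spent at about 70% of maximal speed was lengthened over the first weeks. The Activity Reduction group (n = 7) ran in the same way for 4 weeks and was then inactive for 2 weeks. Every mouse, including those of the Inactive group, performed a final maximal running test 48 to 72 h before the muscle was taken, and was fasted beforehand, for 5 to 6 h by the labels and over a somewhat wider range by the methods.

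A nerve impulse spreads along the transverse tubules of a muscle fiber, where the voltage sensor Cav1.1 opens the ryanodine receptor of the facing sarcoplasmic reticulum, and the calcium that leaves the store starts contraction. Relaxation follows as calcium pumps of the SERCA family return calcium to the store, where calsequestrin binds it. Fast and slow fibers use different members of these families. Fast fibers carry SERCA1, mainly calsequestrin 1 and much parvalbumin, whereas slow fibers, like the heart, carry SERCA2 and more calsequestrin 2.

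The libraries held between 38482455 and 59785132 counts, and every Active library held fewer than every Inactive library. The 6 defining transcripts of skeletal muscle (Ckm, Acta1, Des, Mb, Ttn and Neb) summed to between 62428 and 70186 CPM (counts relative to each library's total) in all libraries. The 8 heart markers summed to between 10.9 and 15.4 CPM, with 2 to 3 of them at 0 in each group, so the slow and cardiac forms described here were read in a muscle with little cardiac RNA. Transcripts of 24 liver genes divided the libraries into 8 with more (Alb at 365 to 1155 CPM in 1 Inactive, 5 Active and 2 Activity Reduction mice) and 13 with fewer (Alb at 71.1 to 161 CPM in 6 Inactive, 2 Active and 5 Activity Reduction mice). Every mouse of the set with more had a lower animal number than every mouse of the set with fewer. The sets therefore cannot be told apart from the order of numbering, and why they follow it was not tested. The groups were spread unevenly over the sets, so comparisons of groups are in part comparisons of these sets. Of the 10 calcium genes, 0 differed between these sets of libraries with edgeR's quasi-likelihood test or with DESeq2, where 4.2% and 3.62% of all genes tested did, and 1 had an unadjusted p under 0.05 with edgeR (Pvalb, -0.15 log2), where 12.6% of all genes did. The differences were larger, with wider errors, for Atp2a2 (-0.37 log2, SE 0.19), Sln (-0.32 log2, SE 0.17) and Casq2 (-0.18 log2, SE 0.09). The 7 slow fiber genes named below were all lower in the libraries with more liver transcripts, with a median of -0.39 log2, and 3 had an unadjusted p under 0.05.

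The 10 genes together held between 6.15% and 6.83% of all counts in each library, with a median of 6.43%. Per length of exon, the order of their levels ran from the fast fiber pump to the pump inhibitor sarcolipin. Levels are given here as counts per kilobase of exon, scaled to the library total (RPKM), as the mean ± SD of 21 libraries. Atp2a1, which encodes SERCA1, had 6549 ± 277 RPKM and Pvalb, which encodes the cytosolic calcium buffer parvalbumin, had 1820 ± 151 RPKM. Casq1 (calsequestrin 1) had 341 ± 35.8 RPKM and Ryr1 (the ryanodine receptor of skeletal muscle) had 326 ± 20.7 RPKM. The ranges of these last genes overlapped, and no other neighbours in the order did. The length is that of all annotated exons of a gene merged, and the order depends on this choice. Other lengths were not tested. Cacna1s, which encodes the voltage sensor, had 217 ± 10.0 RPKM, Srl, which encodes the luminal calcium-binding protein sarcalumenin, had 154 ± 5.66 RPKM, and Jph1 (junctophilin 1, which holds the reticulum to the transverse tubule) had 82.7 ± 6.09 RPKM. The transcripts of slow fibers stood at the low end, with 42.0 ± 12.7 RPKM for Atp2a2 (SERCA2) and 7.12 ± 1.36 RPKM for Casq2 (calsequestrin 2). Sln, which encodes sarcolipin, a small membrane peptide that slows the SERCA pumps, was lowest at 1.88 ± 0.53 RPKM, from 90 to 240 counts per library.

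**Figure D1:**
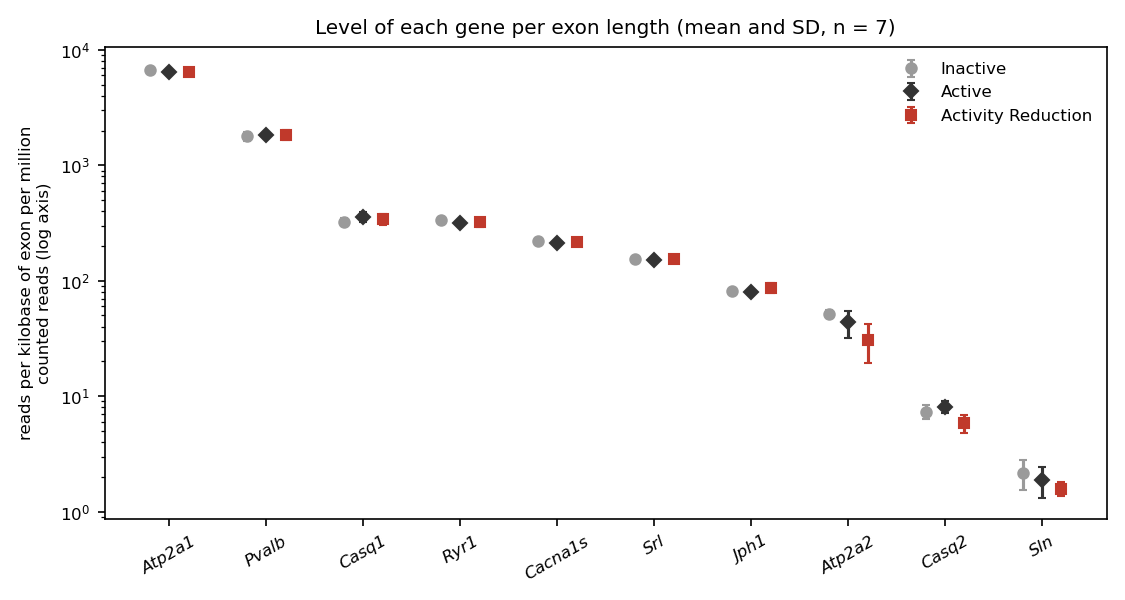
Level of each of the 10 genes per exon length, in RPKM on a log axis, as the mean (symbols) and SD (bars) of 7 mice in each of the 3 groups. Atp2a1 is highest at 6549 and Sln lowest at 1.88 over all mice, and the groups lie apart most for Atp2a2.

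The genes also differed in how far they varied from mouse to mouse. The highest library held 1.16 times the normalized counts of the lowest for Atp2a1, 1.20 times for Cacna1s and for Srl, and 3.77 times for Atp2a2. The SD of log2 normalized counts within groups was 0.07 for Atp2a1, Cacna1s and Srl, and more than 96% of the genes tested varied more than each of these. It was 0.10 for Ryr1 and Jph1, 0.15 for Pvalb, 0.17 for Casq1, 0.21 for Casq2, 0.37 for Sln and 0.45 for Atp2a2, against a median of 0.19 over all genes tested. The slow fiber pump was thus the most variable of the 10, and the fast fiber pump was among the steadiest.

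In the comparisons between groups, the smallest p-values belonged to Atp2a2 and Casq2, with lower means after activity reduction, and to Jph1, with a higher mean, but none of the 10 passed the thresholds of an adjusted p under 0.05 and a log2 fold change over 0.25 in edgeR's quasi-likelihood test, adjusted by Benjamini-Hochberg over 16129 genes. Between the Active and Inactive groups 0 of 10 were called, where 0% of all genes were, and 0 of 10 had an unadjusted p under 0.05, where 10.9% of all genes did. Between the Activity Reduction and Inactive groups 0 of 10 were called, where 0.0124% of all genes were, and 4 had an unadjusted p under 0.05 (Atp2a2, Casq2 and Sln lower, Jph1 higher), where 7.73% of all genes did. Between the Activity Reduction and Active groups 0 of 10 were called, where 0% of all genes were, and 3 had an unadjusted p under 0.05 (Atp2a2 and Casq2 lower, Jph1 higher), where 13.3% of all genes did. These comparisons share their groups, so they are not independent of each other. DESeq2, fitted to the same 21 libraries, called 0, 1 (Atp2a2) and 1 (Casq2) of the 10 in the same order of comparisons. It called 0.524%, 0.812% and 0.791% of the 11826, 2587 and 14544 genes that its filter kept. That filter left Casq2 and Sln without an adjusted p between the Activity Reduction and Inactive groups. In 1 test of any difference among the 3 groups, edgeR called 0 of 10, where 0% of all genes were called, with 3 at an unadjusted p under 0.05 (Casq2, Atp2a2 and Jph1), where 12.6% of all genes had such a p. DESeq2's likelihood ratio test called Casq2 (adjusted p = 0.0193), where 1.79% of the 14000 genes that its filter kept were called. For 0 of the 10 were all 7 mice of a group above or below all 7 of another, where this held for 0.254%, 0.118% and 0.291% of all genes in the 3 comparisons.

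**Figure D2:**
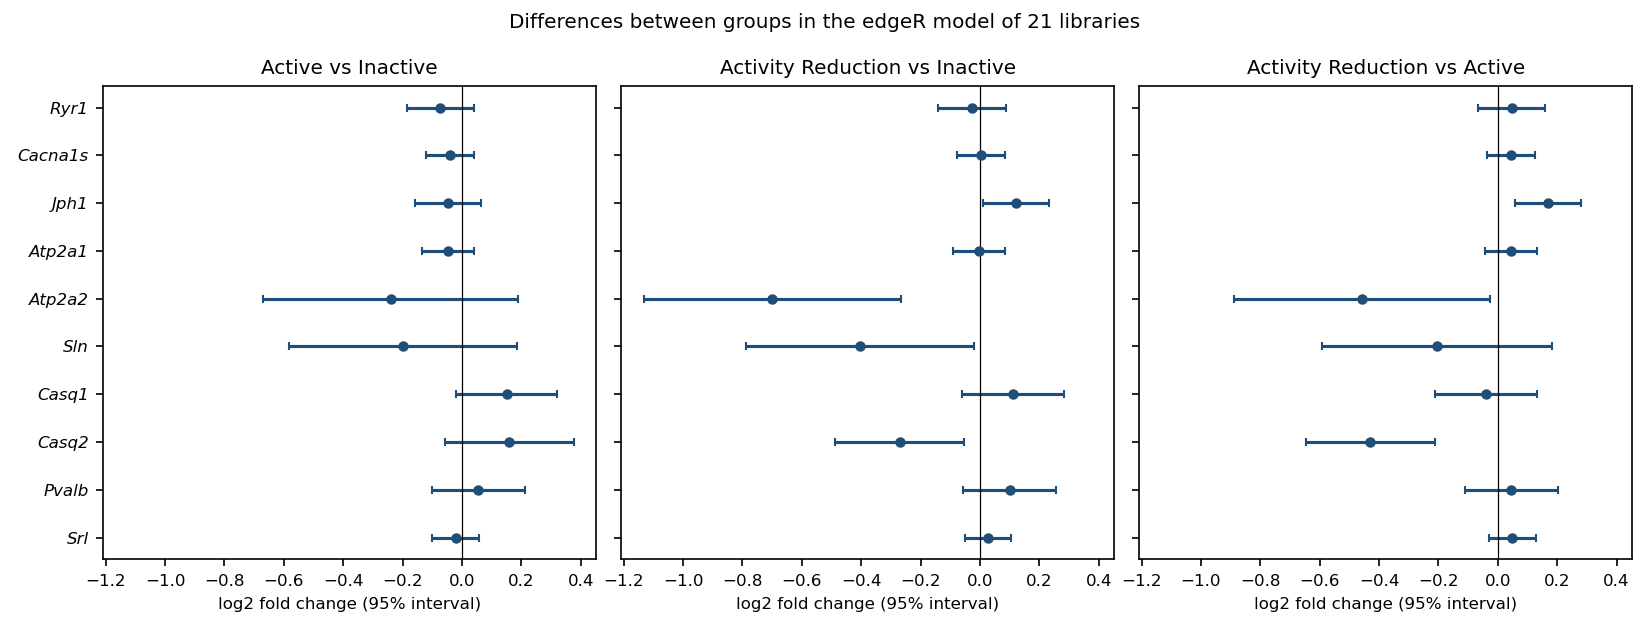
Log2 fold changes of the 10 genes (points) with 95% intervals (bars) in the edgeR model of 21 libraries, with 1 panel for each comparison of groups. The intervals lie on 1 side of 0 for Atp2a2, Sln, Casq2 and Jph1 between the Activity Reduction and Inactive groups, for Atp2a2, Casq2 and Jph1 between the Activity Reduction and Active groups, and for none of the 10 between the Active and Inactive groups. These intervals are not adjusted for the number of genes.

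**Figure D3:**
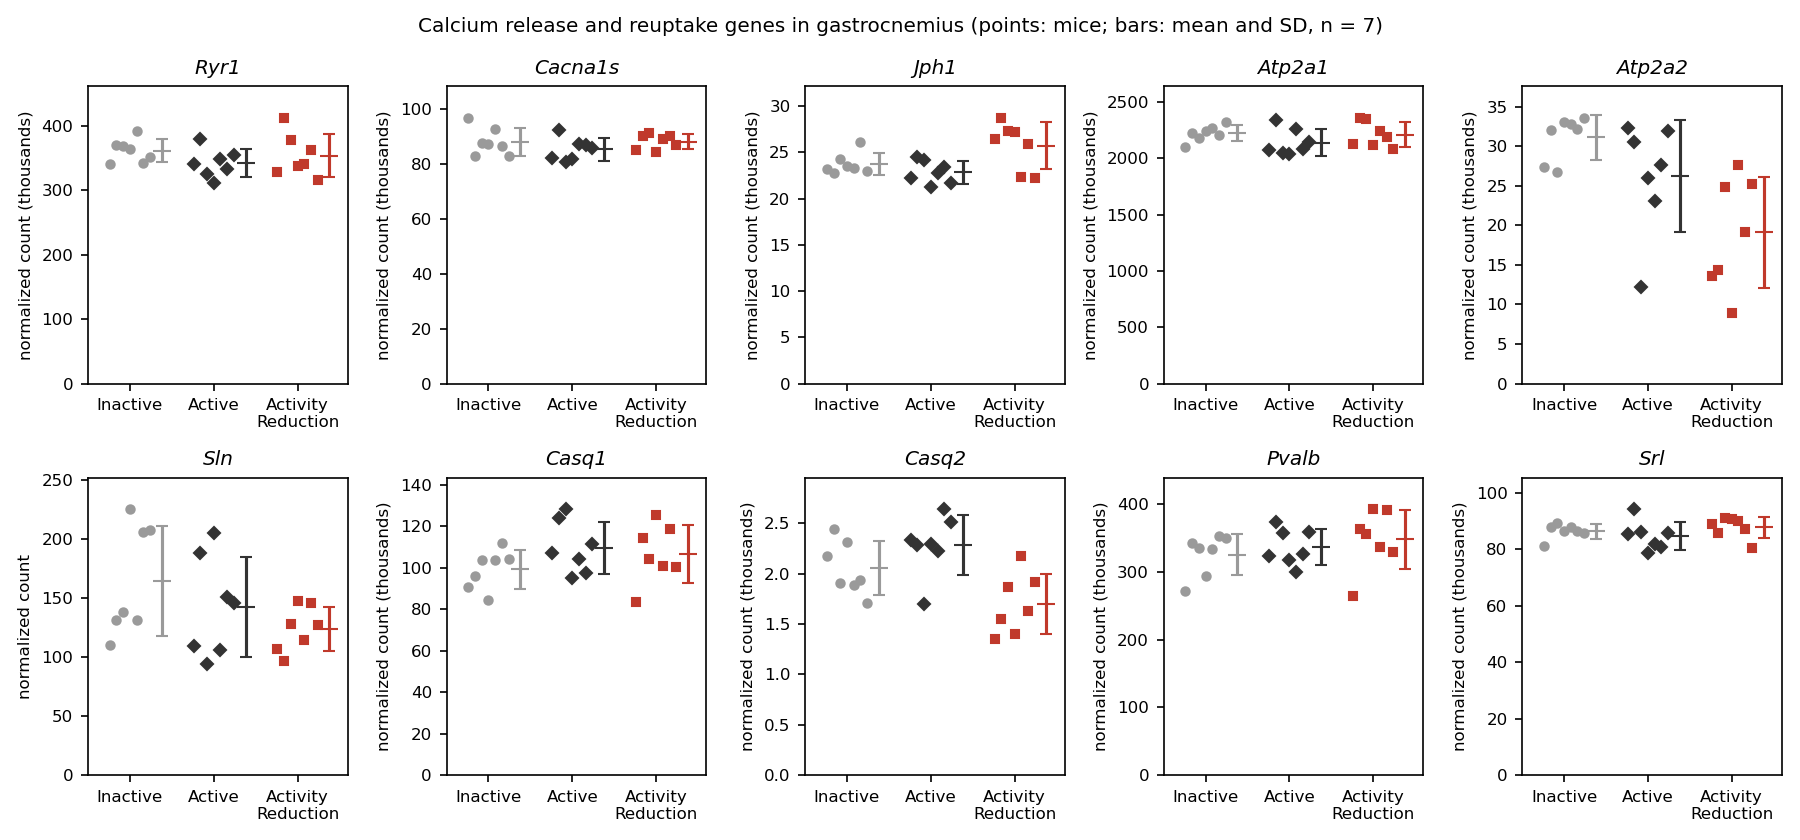
Normalized counts of the 10 genes in each mouse (points, 7 per group, in the units marked on each axis), with the mean and SD of each group (bars at the right of each group) and vertical axes from 0. The groups overlap in all 10 panels, and 6 of 7 Activity Reduction mice lie below every Inactive mouse for Atp2a2.

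Among the genes of calcium reuptake, Atp2a2 had the largest difference. Normalized counts of Atp2a2 ran in Inactive mice from 26747 over a median of 32181 to 33582, in Active mice from 12138 over 27615 to 32338, and in Activity Reduction mice from 8896 over 19129 to 27588. All 7 Activity Reduction mice lay below the median of the Inactive group and below that of the Active group, and 6 lay below every Inactive mouse, but the ranges overlapped. The means were 31109 ± 2824 (SD, n = 7) in Inactive mice, 26208 ± 7049 in Active mice and 19092 ± 7053 in Activity Reduction mice. Atp2a2 in Activity Reduction mice differed from that in Inactive mice by -0.70 log2 (SE 0.21, 95% interval -1.13 to -0.27), a change of -38.4%, with an unadjusted p of 0.00287 and an adjusted p of 0.368 in edgeR. DESeq2 on the 21 libraries gave -0.70 log2 with an adjusted p of 0.0454 over the 2587 genes that its filter kept, and over 10 other settings of the test the adjusted p ran from 0.0454 to 0.585. Against the Active group the difference was -0.46 log2 (SE 0.21, adjusted p = 0.344 in edgeR), and between the Active and Inactive groups it was -0.24 log2 (SE 0.21, adjusted p = 0.709). The latter was -0.12 log2 without Active replicate 3, -0.03 log2 with the liver set as a covariate and -0.09 log2 in only the 13 libraries with fewer liver transcripts. Among the 13 libraries low in liver transcripts, the means gave -0.59 log2 between 5 Activity Reduction and 6 Inactive mice. Among the 8 libraries high in them, 2 Activity Reduction mice lay -0.97 log2 from the only Inactive mouse and -0.82 log2 from 5 Active mice.

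Atp2a1, the gene of the fast fiber pump, had close values in the 3 groups. Its normalized counts ran from 2100530 over a median of 2230370 to 2322650 in Inactive mice, from 2036610 over 2083960 to 2340320 in Active mice and from 2083210 over 2194170 to 2360990 in Activity Reduction mice. The groups lay over each other, and the 95% intervals of the differences (edgeR) were -0.14 to 0.04 log2 between the Active and Inactive groups, -0.09 to 0.09 log2 between the Activity Reduction and Inactive groups and -0.04 to 0.13 log2 between the Activity Reduction and Active groups. Sln counts ran from 110 over a median of 138 to 225 normalized counts in Inactive mice, from 94.0 over 145 to 205 in Active mice and from 96.7 over 127 to 147 in Activity Reduction mice. The 3 highest Inactive mice and the 3 highest Active mice exceeded every Activity Reduction mouse, while the lowest values of the groups were close. Sln in the Activity Reduction group differed from the Inactive group by -0.40 log2 (SE 0.19, unadjusted p = 0.0404, adjusted p = 0.639 in edgeR) and from the Active group by -0.20 log2 (SE 0.19, adjusted p = 0.661). The exons of Atp2a1 (GRCm39, chr7:126045013-126063423, minus strand) share 17.6% of their length with Rabep2 on the opposite strand. Those of Atp2a2 (chr5:122591575-122640903, minus strand) share 26.2% with Gm43361, a locus annotated on the opposite strand that the count table does not list. Exons of Cacna1s share 16.5% with Gm37759, also annotated on the opposite strand and absent from the count table. Whether reads were counted by strand is not given in the sources used here, so counts from these stretches are uncertain.

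Transcripts of slow fibers moved with Atp2a2. The summed level of 7 slow fiber genes (Myh7, Myl2, Myl3, Tnnt1, Tnni1, Tnnc1 and Tpm3) ran from 1542 over a median of 1827 to 2044 CPM in Inactive mice, from 808 over 1717 to 1907 CPM in Active mice and from 491 over 1260 to 1671 CPM in Activity Reduction mice. Between the Activity Reduction and Inactive groups all 7 were lower, with a median of -0.59 log2, 0 passed the thresholds in edgeR, where 0.0124% of all genes did, and 4 had an unadjusted p under 0.05, where 7.73% did. Of 8 fast fiber genes in the same comparison, 7 were higher and 1 lower, with a median of 0.05 log2, 0 passed and 1 had an unadjusted p under 0.05 (Mylpf, 0.40 log2). In bulk muscle, fewer slow fibers in the sample and less of these RNAs per fiber cannot be told apart. The mean of the log2 normalized counts of these 7 genes is called the slow fiber score here. It was 13.40 ± 0.13 (SD, n = 7) in Inactive mice, 13.19 ± 0.48 in Active mice and 12.73 ± 0.72 in Activity Reduction mice. The 4 lowest scores belonged to Activity Reduction replicates 4, 1 and 2 and Active replicate 3, and the same 4 mice had the lowest Atp2a2.

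Across the 21 libraries, log2 normalized counts of Atp2a2 followed the score with Pearson's r = 0.97 and Spearman's rho = 0.91 (permutation test, two-sided, p = 1e-05, the smallest that 100000 permutations can give, adjusted p = 0.0001 over 10 genes). Without the 2 libraries farthest from the median score, r was 0.97. Within the Inactive, Active and Activity Reduction groups r was 0.94, 0.99 and 0.97, and within the libraries with more and with fewer liver transcripts it was 0.96 and 0.98. For Casq2, r was 0.76 and rho 0.63 (permutation test, p = 4e-05 and 0.0027, adjusted p = 0.0002 and 0.0135), and r was 0.56 without the 2 farthest libraries. For Casq2 within the Active and Activity Reduction groups r was 0.92 and 0.90, and within the Inactive group it was -0.17. The scores of the Inactive group span a narrow range, over which r of Atp2a2 was 0.94. Why Casq2 did not follow the score in that group was not tested. In the libraries high and low in liver transcripts r of Casq2 was 0.92 and 0.66. Jph1 ran the other way, with r = -0.57 and rho = -0.41 (permutation test, p = 0.0076 and 0.0622, adjusted p = 0.0253 and 0.155). For Jph1 r was weaker without the 2 farthest libraries, at -0.40 (permutation test, adjusted p = 0.177), and -0.47 after subtracting group means (adjusted p = 0.108). In the libraries high and low in liver transcripts r of Jph1 was -0.60 and -0.58. For Sln r was 0.41 and rho 0.51 (permutation test, p = 0.0638 and 0.0198, adjusted p = 0.159 and 0.066). Without the 2 farthest libraries r of Sln was 0.59 (adjusted p = 0.0249), and after subtracting group means it was 0.26 (adjusted p = 0.422). For Sln within the Inactive, Active and Activity Reduction groups r was 0.65, 0.62 and -0.09, and in the libraries high and low in liver transcripts 0.57 and 0.14. The other 6 genes had r between -0.26 and 0.26, with adjusted p of 0.413 or more. Among these, r of Casq1 was -0.47 without the 2 farthest libraries (permutation test, p = 0.0452, adjusted p = 0.113), and 0.09 and -0.61 in the libraries high and low in liver transcripts. In these same sets r of Pvalb was 0.16 and -0.57. Within the Inactive, Active and Activity Reduction groups r was 0.77, 0.30 and 0.38 for Atp2a1 and -0.55, 0.49 and 0.76 for Cacna1s.

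With the score as a term beside group in the edgeR model of all genes tested, 2 of the 10 passed the thresholds, where 0.149% of all genes did (0.118% higher and 0.031% lower with the score). The 7 genes of the score are among those called. Atp2a2 was higher by 0.89 log2 for each unit of score, a unit being a doubling of slow fiber transcripts (SE 0.05, adjusted p = 5.31e-11, edgeR's quasi-likelihood test), and Casq2 by 0.33 log2 (SE 0.06, adjusted p = 0.0276). Atp2a1 had 0.05 log2 (SE 0.04, adjusted p = 0.692) and Casq1 had -0.09 log2 (SE 0.07, adjusted p = 0.660). In this model the difference in Atp2a2 between the Activity Reduction and Inactive groups was -0.16 log2 in place of -0.70, and that between the Activity Reduction and Active groups was -0.05 log2 in place of -0.46. For Casq2 these values were -0.05 log2 in place of -0.27 and -0.27 log2 in place of -0.43. The score follows Atp2a2 closely in the same libraries and itself differs between groups, so smaller values for Atp2a2 were largely set in advance. Whether slow fiber content accounts for these differences was not tested. Without the 3 libraries lowest in the score, a setting chosen after the data were seen, Atp2a2 differed by -0.48 log2 between the Activity Reduction and Inactive groups and Casq2 by -0.38 log2 between the Activity Reduction and Active groups.

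**Figure D4:**
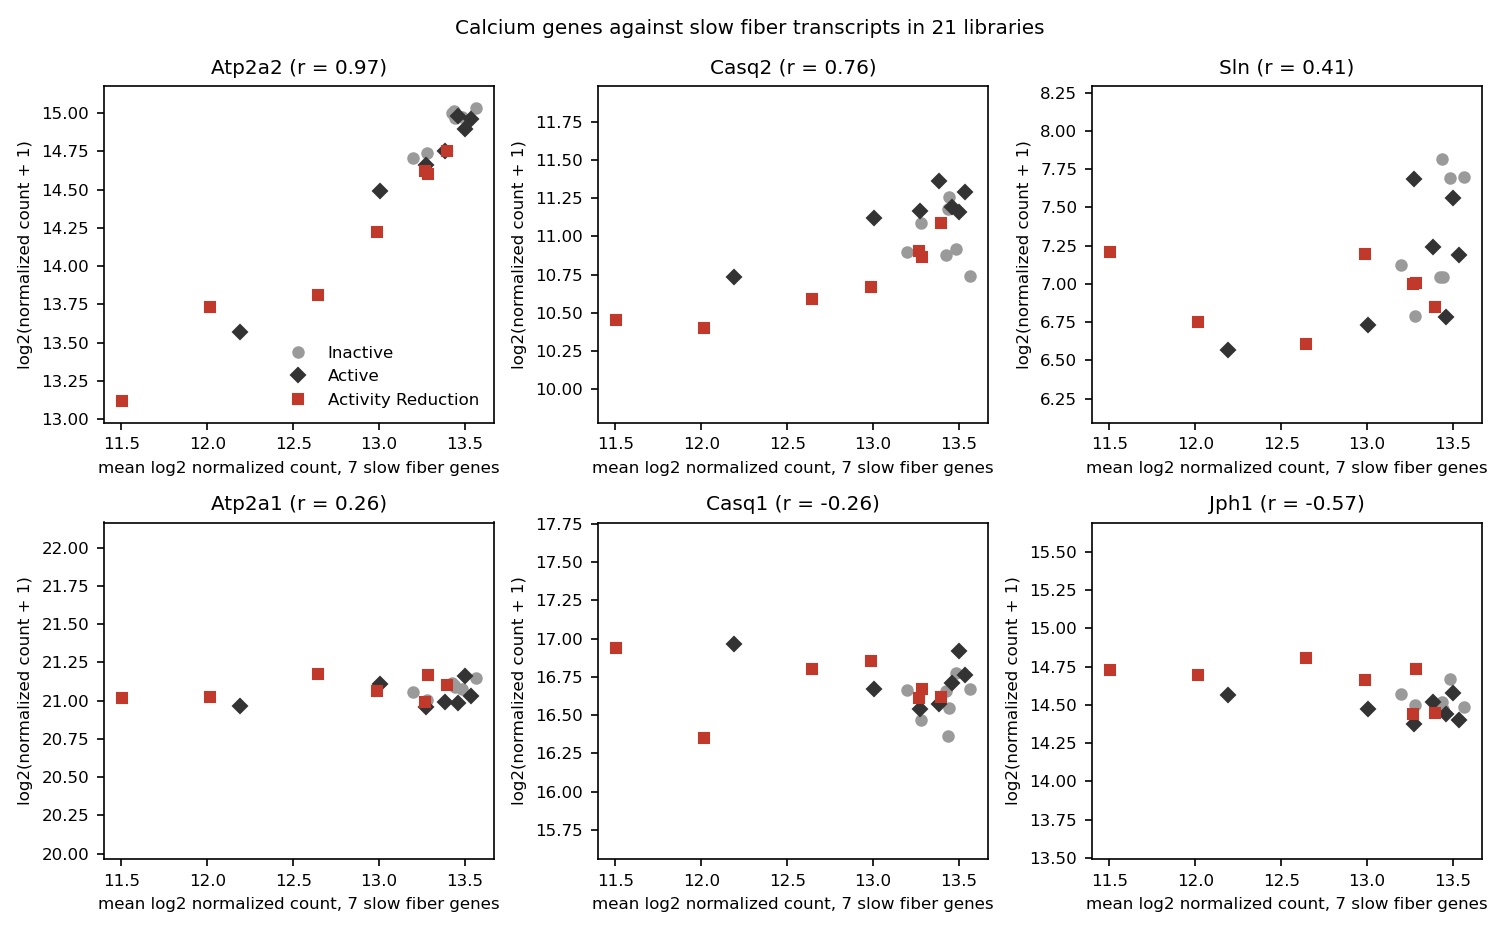
Log2 normalized counts of 6 of the genes (vertical axis, with the same span of 2.2 log2 units or more in each panel) against the mean log2 normalized count of 7 slow fiber genes (horizontal axis) in 21 libraries, with the group shown by symbol. Atp2a2 follows the slow fiber genes with r = 0.97 and Casq2 with r = 0.76, whereas r is 0.26 for Atp2a1 and -0.26 for Casq1.

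The slow and fast forms were also compared within each library, as the share of counts on both forms that fell on the slow form, which needs no scaling between libraries. Atp2a1 varied little (1.16 times from lowest to highest library), so the Atp2a2 share largely repeats the Atp2a2 counts and is not separate support for their difference. The p-values here are adjusted over 6 tests of genes chosen with earlier results of these data known, not over 16129 genes. Atp2a2 held between 1.21% and 1.45% of the counts on Atp2a1 and Atp2a2 in Inactive mice (median 1.42%), between 0.59% and 1.54% in Active mice (median 1.29%), and between 0.417% and 1.21% in the Activity Reduction group (median 0.864%). Active replicate 3 and Activity Reduction replicates 1, 2 and 4 held the lowest shares. The mean share was 1.38% ± 0.0922 (SD, n = 7) in Inactive mice, 1.21% ± 0.32 in Active mice and 0.854% ± 0.311 in Activity Reduction mice. The Activity Reduction group differed from the Inactive group by -0.524 percentage points in an exact permutation test (two-sided, p = 0.00117, adjusted p = 0.00702 over 6 tests, where the smallest p of this design is 0.000583). From the Active group it differed by -0.353 percentage points (exact permutation p = 0.0565, adjusted p = 0.0848), and the Active group differed from the Inactive group by -0.171 percentage points (exact permutation p = 0.207, adjusted p = 0.248). The share of Casq2 among counts on Casq1 and Casq2 was 2.06% ± 0.432 in Inactive mice, 2.08% ± 0.422 in Active mice and 1.59% ± 0.351 in Activity Reduction mice. Its differences between the Activity Reduction group and the others, -0.470 percentage points from the Inactive and -0.488 from the Active group, had exact permutation p of 0.0466 and 0.039 and an adjusted p of 0.0848 each. With 1 library left out, the adjusted p between the Activity Reduction and Active groups ran from 0.0222 to 0.174 for Atp2a2 and from 0.021 to 0.174 for Casq2 (exact permutation). The lowest of each came without Active replicate 3, the Active mouse with the lowest value of both shares, and passed. The share of Atp2a2 in Activity Reduction mice differed from that in Inactive mice by -0.447 percentage points within the 13 libraries lower in liver transcripts (exact permutation, adjusted p = 0.026), and by -0.394 percentage points without the 3 libraries lowest in slow fiber transcripts (exact permutation, adjusted p = 0.0152).

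**Figure D5:**
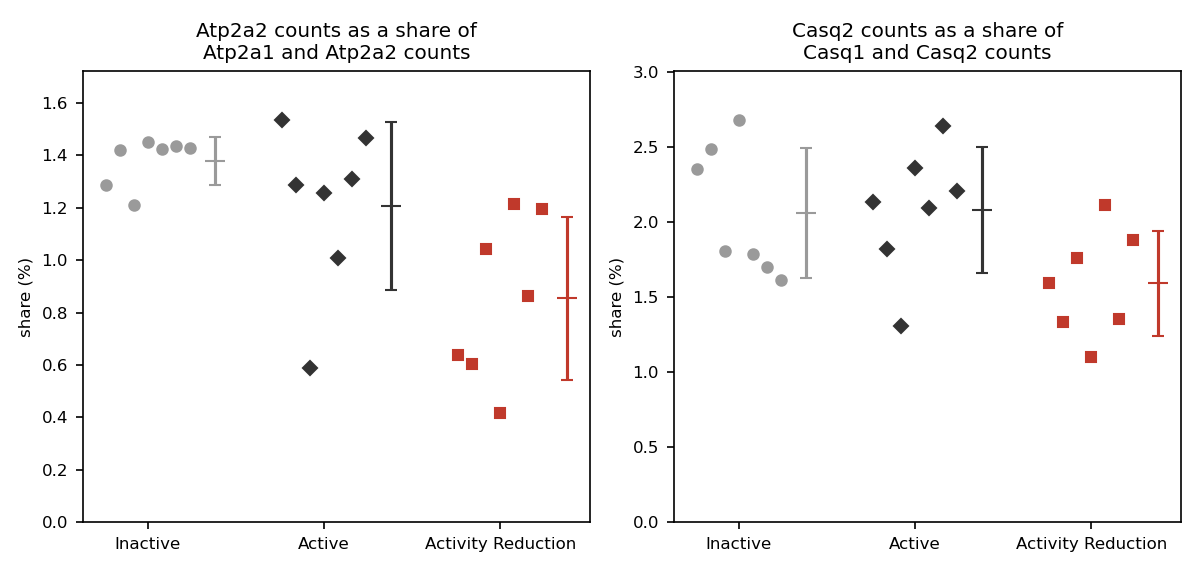
Counts on Atp2a2 as a share of counts on Atp2a1 and Atp2a2 (left), and counts on Casq2 as a share of counts on Casq1 and Casq2 (right), in percent on axes from 0. Points are mice (7 per group) and bars the mean and SD. The mean share of Atp2a2 falls from 1.38% in the Inactive group to 0.854% in the Activity Reduction group, with overlapping ranges.

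Of the genes that bind calcium in the store and the cytosol, Casq2 differed most. Its normalized counts ran from 1710 over a median of 1938 to 2446 in Inactive mice, from 1700 over 2295 to 2637 in Active mice and from 1351 over 1628 to 2171 in Activity Reduction mice. All 7 Activity Reduction mice lay below the median of the Active group, and 4 lay below every Active mouse. Casq2 in the Activity Reduction group differed from the Active group by -0.43 log2 (SE 0.11, 95% interval -0.65 to -0.21), a change of -25.8%, with an unadjusted p of 0.00047 and an adjusted p of 0.111 in edgeR. DESeq2 gave -0.43 log2 with an adjusted p of 0.0102 on 21 libraries and 0.0111 on only the libraries of these groups. In the latter it called 1.03% of the 13526 genes that its filter kept. Over 10 other settings the adjusted p ran from 0.0102 to 0.981. The highest of these came from the 13 libraries with fewer liver transcripts, of which 2 were Active, where the difference was -0.52 log2. Casq2 in the Active group was 0.16 log2 (SE 0.10) above the Inactive group (adjusted p = 0.596 in edgeR), and in the Activity Reduction group it was -0.27 log2 (SE 0.10) from the Inactive group (adjusted p = 0.535).

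Casq1 had 99129 ± 9469 normalized counts (SD, n = 7) in Inactive mice, 109554 ± 12492 in Active mice and 106714 ± 13962 in Activity Reduction mice. Its lowest mouse, with 83571, and its highest, with 128040, belonged to the Activity Reduction and the Active group, and 2 Active mice exceeded every Inactive mouse. Casq1 differed by 0.15 log2 (SE 0.08, adjusted p = 0.513 in edgeR) between the Active and Inactive groups and by -0.04 log2 (SE 0.08) between the Activity Reduction and Active groups. Pvalb had 325841 ± 30873 normalized counts in Inactive mice, 336879 ± 26758 in Active mice and 348115 ± 43949 in Activity Reduction mice, with differences of 0.05 to 0.10 log2 (SE 0.08 each) and adjusted p of 0.823 or more. Activity Reduction mice held both the lowest and the highest value of Pvalb. Srl had 86274 ± 2586, 84605 ± 5032 and 87645 ± 3691 in that order of groups, and the 95% intervals of its differences lay within -0.10 and 0.13 log2.

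The 250 bases before the transcription start of Casq2 and of its fast fiber relative Casq1 are shown because these genes of 1 family differed in their relation to slow fiber transcripts, and those of Pvalb because it moved with Casq1. They are from RefSeq on the build GRCm38.p6, which has entries for 6 of the 10 genes, and run 5′ to 3′ on the strand of the gene. Capitals mark the E-box (CANNTG), the motif of myogenic factors, and the MEF2 motif, both searched on both strands. The marked motifs do not overlap.
Casq2, chr3:102086165-102086414, plus strand: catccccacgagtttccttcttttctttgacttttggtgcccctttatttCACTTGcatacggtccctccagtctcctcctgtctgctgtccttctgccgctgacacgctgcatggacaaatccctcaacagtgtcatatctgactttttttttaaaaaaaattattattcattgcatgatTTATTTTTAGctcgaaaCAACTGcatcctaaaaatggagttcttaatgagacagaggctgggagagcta
Casq1, chr1:172219896-172220145, minus strand: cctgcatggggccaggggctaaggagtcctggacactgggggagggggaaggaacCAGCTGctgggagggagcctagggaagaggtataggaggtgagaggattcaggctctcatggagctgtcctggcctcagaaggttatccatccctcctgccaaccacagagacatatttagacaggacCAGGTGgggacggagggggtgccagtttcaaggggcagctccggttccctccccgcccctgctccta
Pvalb, chr15:78206401-78206650, minus strand: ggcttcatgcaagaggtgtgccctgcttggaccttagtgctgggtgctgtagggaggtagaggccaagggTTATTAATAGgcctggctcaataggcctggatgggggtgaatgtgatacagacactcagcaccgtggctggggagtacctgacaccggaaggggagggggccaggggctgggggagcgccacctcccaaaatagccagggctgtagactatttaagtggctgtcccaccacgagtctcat
The stretch of Casq2 held 1 MEF2 motif, 59 bases before the start, and 2 E-boxes, the nearest 46 bases before it. That of Casq1 held 2 E-boxes, the nearest 61 bases before the start, and no MEF2 motif. The stretch of Pvalb at its first start site held 1 MEF2 motif, 170 bases before the start, and no E-box. At a second start site of Pvalb (chr15:78204238-78204487, not shown) it was the reverse, with 1 E-box, 105 bases before the start, and no MEF2 motif. Among 32851 stretches of the same length before annotated starts, 66.2% held an E-box and 2.92% a MEF2 motif. Motifs named NFAT core, MCAT, CArG and TATA were searched too and are not marked. Of these, the stretches shown held only 1 NFAT core, in Casq2, 233 bases before the start. That motif was found in 55.6% of all stretches. The motifs describe these letters only.

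Jph1 differed most among the genes of calcium release, though by fewer log2 units than Atp2a2 or Casq2. Jph1 ran from 22785 over a median of 23263 to 26094 normalized counts in Inactive mice, from 21242 over 22762 to 24438 in Active mice and from 22199 over 26483 to 28717 in Activity Reduction mice. In the Activity Reduction group 5 mice lay above every Active mouse and 4 above every Inactive mouse, while the 2 lowest lay below every Inactive mouse. Jph1 in the Activity Reduction group was 0.17 log2 (SE 0.05, 95% interval 0.06 to 0.28) above the Active group, or 12.4% higher (unadjusted p = 0.00451, adjusted p = 0.181 in edgeR), and 0.12 log2 (SE 0.05) above the Inactive group (adjusted p = 0.637). The Active group differed from the Inactive group by -0.05 log2 (SE 0.05, adjusted p = 0.784).

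Ryr1 had 361706 ± 18246 normalized counts (SD, n = 7) in Inactive mice, 342228 ± 21654 in Active mice and 354012 ± 33256 in Activity Reduction mice. The highest mouse, with 412742, was of the Activity Reduction group and the lowest, with 312245, of the Active group. The 95% interval of the difference of Ryr1 was -0.19 to 0.04 log2 between the Active and Inactive groups, -0.14 to 0.09 log2 between the Activity Reduction and Inactive groups and -0.07 to 0.16 log2 between the Activity Reduction and Active groups. Cacna1s had 88060 ± 5036, 85218 ± 4067 and 88036 ± 2760 normalized counts in that order of groups. Its intervals were -0.12 to 0.04 log2, -0.08 to 0.09 log2 and -0.04 to 0.13 log2, so that differences of 0.25 log2 lay outside the interval of Ryr1 and of Cacna1s in each comparison.

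From mouse to mouse, some of the 10 genes varied together. Of their 45 pairs across the 21 libraries, 5 had an adjusted p of Pearson's r under 0.05 in a permutation test, 3 of them positive. Ryr1 ran with Atp2a1, the release channel with the fast fiber pump (r = 0.81, rho = 0.85, adjusted p = 0.000225 and 0.000675, permutation test). Casq1 paired with Pvalb (r = 0.85, rho = 0.83, adjusted p = 0.000225 and 0.000675, permutation test) and Atp2a2 with Casq2 (r = 0.75, rho = 0.59, adjusted p = 0.0012 and 0.0493, permutation test). Jph1 ran against Casq2 (r = -0.72, rho = -0.66, adjusted p = 0.0027 and 0.0237, permutation test) and against Atp2a2 (r = -0.61, adjusted p = 0.0317, permutation test), though for the latter the ranks gave rho = -0.42 (adjusted p = 0.213). Without the 2 libraries farthest from the median of the first gene named, r of these 5 pairs was 0.79, 0.78, 0.70, -0.73 and -0.61 in the order given. The p-values above pool the 3 groups, so differences between groups enter them. After subtracting group means r was 0.80, 0.87, 0.77, -0.54 and -0.53. In the libraries high in liver transcripts it was 0.90, 0.93, 0.91, -0.82 and -0.68, and in those low in them 0.68, 0.94, 0.67, -0.64 and -0.60.

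Among all genes tested, likeness to the genes described here, other than Ryr1, was ranked by Pearson's r of log2 normalized counts over the 21 libraries after subtracting group means. The genes most like Atp2a2 were Tnnc1, Tpm3 and Tnnt1, the slow fiber troponin C, tropomyosin 3 and troponin T, with r of 0.98, 0.98 and 0.97, all of which are in the slow fiber score. Those most like Casq2 were Nnt, Mfn1 and 2310057M21Rik (r of 0.84, 0.84 and 0.81). Atp2a1 was followed by Sptb, Ubr4 and Ubap2 (0.86, 0.84 and 0.83). Casq1 was followed by Nrep, Pkm and Pvalb (0.90, 0.87 and 0.87), and Pvalb by Pkm, Pfdn1 and Tpm1 (0.93, 0.93 and 0.87). For Cacna1s they were Cad, Dhx37 and Ankrd17 (0.78, 0.75 and 0.74), for Jph1 Atp8a1, Marchf4 and Maf (0.83, 0.82 and 0.81), for Sln Gins4, Ovgp1 and Zfp846 (0.86, 0.79 and 0.78), and for Srl Lyrm1, Jmjd1c and 2900089D17Rik (0.84, 0.80 and 0.79). The libraries share their scaling, so these values are descriptions.

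A wider list of 81 genes of calcium handling was examined beside the 10, of which 75 passed the filter on low counts. With edgeR, 0 of these 75 passed the thresholds in each of the 3 comparisons, where 0%, 0.0124% and 0% of all genes did. At an unadjusted p under 0.05 there were 5 between the Active and Inactive groups (3 higher and 2 lower), 11 between the Activity Reduction and Inactive groups (9 higher and 2 lower) and 16 between the Activity Reduction and Active groups (12 higher and 4 lower), where 10.9%, 7.73% and 13.3% of all genes had such a p. The 5 genes with the smallest p of each comparison are given here.

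Between the Active and Inactive groups, the channel gene Trpc1 had 49.2 ± 9.31 against 30.9 ± 6.32 normalized counts (SD, n = 7; 0.68 log2, adjusted p = 0.291 in edgeR). The inositol trisphosphate receptor gene Itpr3 differed by 0.32 log2, the voltage sensor subunit gene Cacnb1 by -0.15 log2, Mcu, the pore of mitochondrial calcium uptake, by 0.13 log2, and Mrln, which encodes the SERCA inhibitor myoregulin, by -0.22 log2. Between the Activity Reduction and Inactive groups, Slc8a1, which encodes a sodium-calcium exchanger, had 1005 ± 233 against 650.4 ± 108 normalized counts (0.63 log2, adjusted p = 0.199 in edgeR). Ryr3, another ryanodine receptor, differed by -0.51 log2, Orai1, the channel of store-operated entry, by 0.23 log2, and the plasma membrane pump gene Atp2b3 by 0.14 log2. Strit1, which encodes DWORF, a peptide that raises SERCA activity, had 13.8 ± 9.44 against 31.4 ± 4.11 normalized counts (-1.17 log2, adjusted p = 0.503 in edgeR). In the model with the slow fiber score, Strit1 was higher by 2.05 log2 for each unit of score (adjusted p = 8.58e-05 in edgeR) and was the only one of the 75 to pass. Between the Activity Reduction and Active groups, Mrln had 978 ± 126 against 760.2 ± 120 normalized counts (0.36 log2, adjusted p = 0.128 in edgeR), Trpc1 differed by -0.74 log2, and Myoz1 (calsarcin 2), Cav3 (caveolin 3) and Jsrp1, a protein of the triad, differed by 0.17, 0.20 and 0.17 log2 (adjusted p between 0.128 and 0.173).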

How the data were processed

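Total RNA of the medial gastrocnemius of 21 mice was sequenced after poly(A) selection. The authors trimmed paired reads (fastp), aligned them to GRCm39 (STAR) and counted them on genes (featureCounts), and versions are not given in the sources used here. The deposited values are raw counts per gene, without normalization. The other deposited file, labelled as normalized, was identical in all 857913 values and was not used. Counts were divided by DESeq2 size factors for the normalized counts printed here. Groups follow the labels. The 10 genes and all gene lists were chosen with earlier results of these data known.

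Genes passing edgeR's filter on low counts (16129 of 40853) were fitted in 1 edgeR quasi-likelihood model of 21 libraries with TMM scaling (edgeR 4.0.16, R 4.3.3), with Benjamini-Hochberg adjustment. A gene was called at an adjusted p under 0.05 and a log2 fold change over 0.25, after the methods, which give 0.25 without a scale. The study elsewhere words the same threshold as a percentage change. DESeq2 1.42.0, the authors' tool, was an alternative. Shares were tested by exact permutation, and correlations of log2(normalized count + 1) by 100000 permutations. Liver sets and the slow fiber score served as covariates. In the model with the score as a term, the score was the mean log2 CPM of the 7 genes. Exon lengths (all annotated exons of a gene merged) and positions are from GENCODE M39. The edgeR script was tested on simulated counts. With 38482455 to 59785132 counts per library, the lowest count in a library was 90 for Sln and 1335 for Casq2, the next lowest of the 10 genes. No 2 libraries of a group agreed within sampling noise. From the wider list, the 5 genes with the smallest p of each comparison and any gene called were named, and for each of the 10 the 3 genes most like it, of which those for Ryr1 are not reported here.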

Additional observations from a re-analysis of the deposited data

How the results depend on the processing

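With DESeq2 on 21 libraries, 1 of the 10 genes was called between the Activity Reduction and Inactive groups (Atp2a2), where Casq2 and Sln had no adjusted p. It also called 1 between the Activity Reduction and Active groups (Casq2) and 1 among the 3 groups (Casq2), against 0 with edgeR in each. On only the groups compared, DESeq2 called 1 between the Activity Reduction and Active groups (Casq2) and 0 in the other comparisons. Over all genes, DESeq2 on 21 libraries called 62, 21 and 115 (on the groups compared, 77, 43 and 139) between the Active and Inactive, Activity Reduction and Inactive, and Activity Reduction and Active groups, and 251 among the 3 groups, against 0, 2, 0 and 0 with edgeR. Leaving out 1 library at a time, edgeR called 0 of the 10 in each comparison, and 1 to 3 of the 6 tests of shares passed, the 3 without Active replicate 3. The replicate number as a block left 0 of the 10 called in each comparison, and 0, 4 and 0 of all genes. Libraries of the same number did not deviate together (correlations from -0.23 to 0.44, over 0.1 in 7 of 21 pairs, with 3 of 21 libraries best correlated with their own number), so the numbers were not taken as pairs.

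Some values changed sign. Among the 8 libraries with more liver transcripts, where the Inactive group has 1 mouse, ratios of means of Sln (0.35 log2, against -0.20 in all libraries), Casq2 (-0.0068), Atp2a1 (0.03) and Srl (0.07) between the Active and Inactive groups, of Ryr1 (0.12), Cacna1s (-0.15) and Atp2a1 (0.10) between the Activity Reduction and Inactive groups, and of Pvalb (-0.09) between the Activity Reduction and Active groups had the other sign. Cacna1s between the Activity Reduction and Inactive groups was -0.000377 and -0.001495 log2 with DESeq2 on 21 libraries and on the groups compared, -0.000068 with its size factors in edgeR and -0.003977 without a filter on low counts. Pvalb between the Activity Reduction and Active groups was -0.024557 with the liver set as a covariate and -0.055468 with liver set and score. With the score as a covariate, without the 3 libraries lowest in it, and with score and liver set, Ryr1 between the Activity Reduction and Inactive groups was 0.000247, 0.008471 and 0.001778, and Atp2a1 was 0.030083, 0.021139 and 0.031435. In the libraries with fewer liver transcripts, Cacna1s between the Active and Inactive groups was 0.000061 and Casq1 between the Activity Reduction and Active groups 0.067805, and the latter was 0.014366 without the 3 lowest libraries. Atp2a1 between the liver sets was -0.000884 with DESeq2 and -0.001053 with its size factors. The r with the score was 0.117 for Srl without the 2 farthest libraries, against -0.18 with them, and 0.0698 for Pvalb after subtracting group means. The cause was not tested. With 1 library left out, Cacna1s ran from -0.017331 to 0.0295092 and Atp2a1 from -0.0230929 to 0.00386607 log2 (Activity Reduction and Inactive groups), Casq1 from -0.0855637 to 0.00532997 (Activity Reduction and Active groups), and the Casq2 share from -0.0753959 to 0.14565 percentage points (Active and Inactive groups). Between the liver sets Ryr1 ran from -0.0470327 to 0.0458845, Cacna1s from -0.0151377 to 0.044312, Atp2a1 from -0.0211456 to 0.0323202, Casq1 from -0.102866 to 0.0254734 and Srl from -0.0284206 to 0.0176681 log2.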
